A study of Glycine max with 12 samples.

Results

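The proline analog L-azetidine-2-carboxylic acid (AZC) was set against water in leaves of soybean (cultivar Dare) on cDNA arrays of 5760 spots, in 4 of the 12 hybridizations of the series. The 4 are those titled AZC: biological replicates 1 and 2, each hybridized in both dye orientations. The other 8 hybridizations, used here only for comparison, compared tunicamycin (TUN) with DMSO and polyethylene glycol (PEG) with water, 4 each. AZC was supplied at 50 mM for 16 h, TUN at 10 μg/ml for 24 h and PEG at 10% (w/v) for 16 h, to shoots cut from young plants and standing in the solution, and the first trifoliate leaves were taken. Whether AZC and PEG shared their water controls is not given in the labels, and the 2 replicates are called biological without further detail.

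AZC is taken up into proteins in place of proline, and the proteins that contain it fold badly. Misfolded proteins in the endoplasmic reticulum (ER) set off the unfolded protein response, in which genes for ER chaperones such as BiP, an Hsp70 of the ER lumen, and calnexin, a lectin chaperone of the ER membrane, are transcribed more. Tunicamycin reaches the same response by blocking N-glycosylation, while PEG withdraws water from the cells. The clones on the arrays came from libraries of developing seed, so leaf genes are sampled only in part, and bulk RNA cannot separate a change per cell from a change in which cells are present.

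Each spot gives 1 log2 ratio of AZC over water per hybridization, so a value of 1 is a fold of 2 on the array and negative values are lower in AZC. Both orientations of a replicate were averaged, leaving 2 values for AZC, and limma was fitted over the replicate values of the 3 treatments, with Benjamini-Hochberg adjustment over all clones tested and a threshold of 0.05. Of 5760 spots, 5023 had a value in both orientations of both AZC replicates and were tested. The platform names the gene of 253 spots, of which 224 were tested. In the sentences that follow, 4 log2 ratios of a clone are those of replicate 1 with AZC in Cy5, replicate 1 with AZC in Cy3, replicate 2 with AZC in Cy5 and replicate 2 with AZC in Cy3.

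Sequence is shown for a clone with a large ratio, calnexin AW508066, and for GSTU41 AW397276, the smallest rise among named clones, both from the primer list of the study. Printed are the stretches amplified by the primers that the study designed on them, in the clone's own direction, with the 2 primer sites in capitals (the second is the reverse complement of the reverse primer). They lie at bases 103 to 245 of the calnexin clone and 55 to 174 of the glutathione S-transferase clone.
calnexin AW508066: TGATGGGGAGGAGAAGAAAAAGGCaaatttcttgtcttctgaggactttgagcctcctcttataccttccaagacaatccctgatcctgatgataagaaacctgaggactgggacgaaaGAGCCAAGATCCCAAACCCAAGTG
glutathione S-transferase AW397276: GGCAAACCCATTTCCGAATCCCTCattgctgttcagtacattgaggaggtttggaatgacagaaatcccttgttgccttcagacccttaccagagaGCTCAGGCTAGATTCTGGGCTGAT

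AZC raised 190 clones (3.78% of those tested) and lowered 248 (4.94%), 438 in all (8.72%). Among the raised clones 123 rose at least 2-fold and 46 rose more than 4-fold, and among the lowered clones 137 fell at least 2-fold and 61 fell more than 4-fold. All 4 hybridizations had the same sign for 433 of the 438 called clones. Calling on these same hybridizations favours a shared sign, so this is no separate test of the calls. Across the 5023 clones the 2 biological replicates correlated at r = 0.88 (rank correlation 0.58), which describes clones of the same arrays and is no test. The test used the spread shared with TUN and PEG. Fitted on the AZC hybridizations alone the count was close, 187 raised and 231 lowered, of which 168 and 206 were also called in the main fit. With the 2 scanner files of PEG replicate 1 as listed, rather than exchanged, the shared fit gave 53 and 23. The hybridizations with the treated RNA in Cy5 alone gave 106 raised and 163 lowered and those in Cy3 alone 174 and 182, which are also the values within each day on which AZC arrays were quantified.

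**Figure D1:**
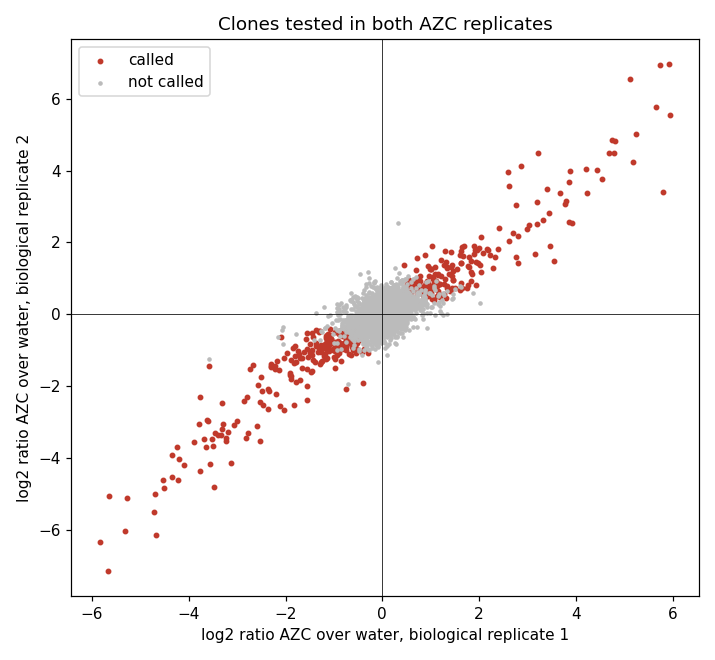
Log2 ratio of AZC over water in biological replicate 1 (x axis) against biological replicate 2 (y axis), 1 point per clone tested, each the mean of a dye-swap pair. Called clones (red, 438) run along the diagonal to beyond 6 and below -6, while the other clones (grey, 4585) crowd around 0.

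Of the 224 named clones tested, 11 rose and 25 fell (4.91% and 11.2%, against 3.78% and 4.94% of all clones). The median of the named clones was -0.01 and that of all clones tested 0.00 on the log2 scale. With no background correction 18 of the 36 called named clones had a ratio smaller by a fold of over 1.5, and none a larger one. The share of named clones depends on what the platform names and says nothing about the genome.

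**Figure D2:**
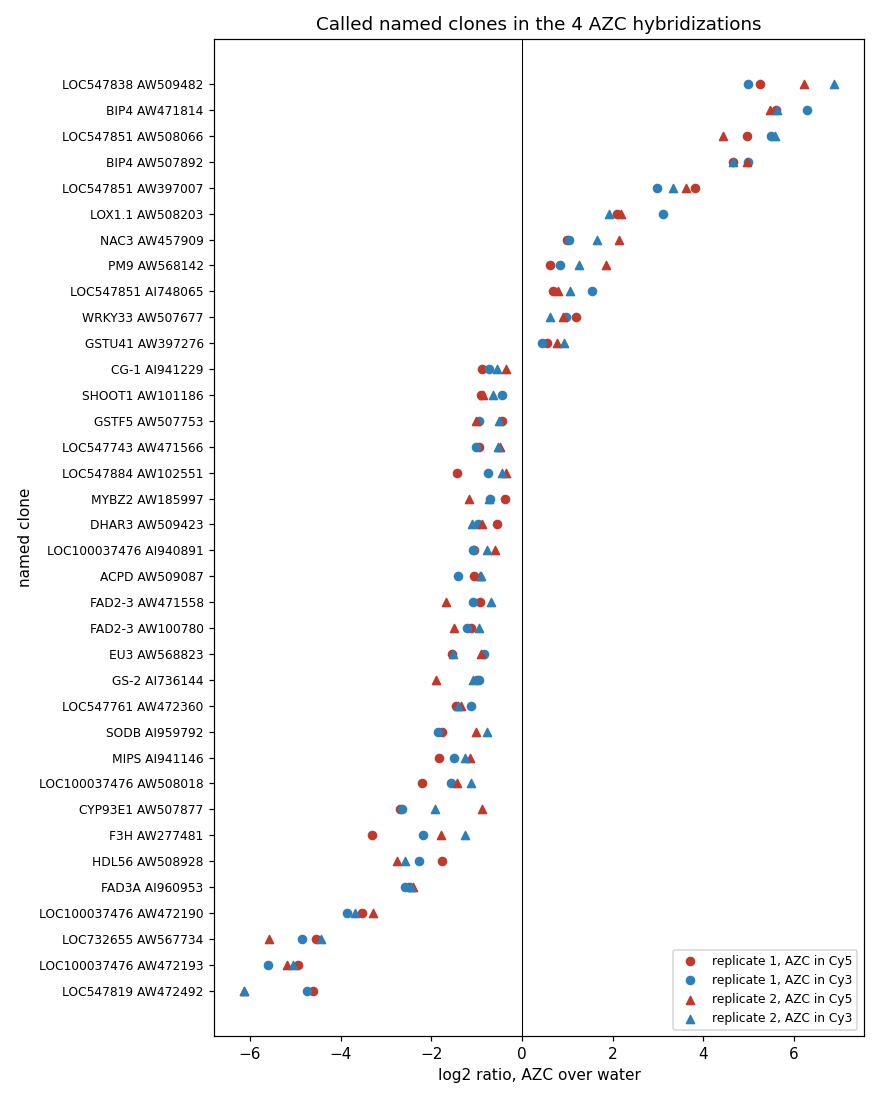
Log2 ratio of AZC over water (x axis) of the 36 called named clones (y axis), 1 point per hybridization, with circles for replicate 1, triangles for replicate 2, red for AZC in Cy5 and blue for AZC in Cy3. For each clone the 4 points lie on the same side of 0, which calling on the same hybridizations favours.

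ER chaperones stood highest. Of 7 tested clones in the list of ER chaperones and folding proteins, 6 rose (85.7%, against 3.78% of all clones) and none fell. The median log2 ratio of the list was 4.81. The clone of BiP isoform D, LOC547838 (AW509482), had log2 ratios of 5.26, 4.997, 6.21 and 6.89. Its mean was 5.84 ± 0.34 (SE, adjusted p = 2.76e-05), a 57.2-fold rise. Over the alternatives its log2 ratio ran from 4.41 with no background correction to 6.55 without AZC replicate 1. Before normalization its background-subtracted intensities were 25200, 53308, 6822 and 14762 in AZC RNA and 900, 1261, 230 and 228 in water RNA, so the groups did not overlap on any array. A second BiP gene, BIP4, was represented by a pair of clones. AW471814 gave 5.61, 6.28, 5.47 and 5.62, with a mean of 5.75 ± 0.19 (SE, adjusted p = 5.44e-06), and AW507892 gave 4.65, 4.98, 4.96 and 4.67, with a mean of 4.81 ± 0.27 (SE, adjusted p = 2.36e-05). Every value of both BIP4 clones lay above 4, and cross-hybridization among the 3 BiP clones was not tested.

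Calnexin, which holds glycoproteins in the ER until they are folded, was spotted as 4 clones of 1 gene symbol, LOC547851. The clone whose sequence is given above, AW508066, had log2 ratios of 4.97, 5.50, 4.45 and 5.59, a mean of 5.13 ± 0.11 (SE, adjusted p = 2.42e-07) and a 35-fold rise, although its log2 ratio was 3.30 with no background correction. Its intensities were 6762, 11475, 2378 and 3046 in AZC RNA and 472, 412, 246 and 175 in water RNA. In water it was among the dimmest 10% of spots on 3 of the 4 arrays, as the BiP isoform D clone was on 2, so the size of these ratios is less sure than their direction. AW397007 gave 3.83, 2.98, 3.63 and 3.35 (mean 3.45 ± 0.21, SE, adjusted p = 2.93e-05) and AI748065 gave 0.69, 1.54, 0.79 and 1.07 (mean 1.02 ± 0.15, SE, adjusted p = 0.00758). The fourth, AW102562, gave 0.05, -0.03, -0.05 and 0.13 and was not called (adjusted p = 0.914). Clones under 1 symbol thus ran from 0.02 to 5.13, and whether all 4 hold calnexin cDNA was not tested. A clone of the PDI-like protein PDIS-2 (AW508381), of the family that forms disulfide bonds in the ER, had values on 3 hybridizations only and was not tested.

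None of 3 tested clones for the ubiquitin and proteasome route, by which misfolded ER proteins are broken down after export, was called. Their log2 ratios were -0.28 ± 0.19 for PAA1, a proteasome alpha subunit, -0.23 ± 0.19 for GRR1, an F-box protein, and -0.04 ± 0.15 for UBC4, a ubiquitin-conjugating enzyme (SE, adjusted p = 0.478, 0.603 and 0.914). These 3 are only the tested clones that the platform names, so they do not stand for the whole route, and 8.72% of all clones were called. The paper reports that TUN and AZC both raised putative genes of ER-associated degradation. Its examples are Derlin, CDC48, polyubiquitin, a ubiquitin-conjugating enzyme and a proteasome alpha subunit. The last 2 are the kinds of gene that UBC4 and PAA1 stand for, and neither clone was called for AZC here. Whether the paper means these clones was not tested. Under TUN, PAA1 was called higher, at 0.92 ± 0.19 (SE, adjusted p = 0.0256). The single translation factor clone was at -0.19 and was not called.

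Outside the ER, 5 named clones rose. LOX1.1 (AW508203), a lipoxygenase that oxidizes polyunsaturated fatty acids, gave 2.11, 3.12, 2.18 and 1.92, with a mean of 2.33 ± 0.15 (SE, adjusted p = 3.94e-05). No other clone of LOX1.1 was called, as given further below. NAC3 (AW457909), of a plant family of transcription factors, gave 0.999, 1.04, 2.14 and 1.65 and averaged 1.457 ± 0.21 (SE, adjusted p = 0.004). In replicate 2 NAC3 was higher than in replicate 1 in both orientations, and NAC2 (AW597851) was at -0.02 ± 0.08 (SE, adjusted p = 0.904).

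PM9 (AW568142), a seed maturation protein of the LEA type, which protect drying cells, gave 0.62, 0.83, 1.86 and 1.27, with a mean of 1.14 ± 0.22 (SE, adjusted p = 0.0314). It was the 1 riser among 8 tested LEA, dehydrin and seed maturation clones (12.5%, against 3.78% of all clones), whose median was 0.22. WRKY33 (AW507677), a transcription factor named after a defence regulator of Arabidopsis, gave 1.20, 0.97, 0.90 and 0.62, with a mean of 0.92 ± 0.21 (SE, adjusted p = 0.0341). GSTU41 (AW397276), the glutathione S-transferase printed above, gave 0.56, 0.45, 0.78 and 0.92, with a mean of 0.68 ± 0.12 (SE, adjusted p = 0.0112), the smallest rise among the named clones. Such enzymes couple glutathione to reactive compounds. WRKY33 and the calnexin clone AI748065 were no longer called in either fit that left out 1 AZC replicate, and PM9, NAC3 and GSTU41 were not called without replicate 2.

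The largest falls among named clones were in genes of the chloroplast and of starch. LOC547819 (AW472492), a chlorophyll a/b-binding protein of photosystem II that gathers light, gave -4.61, -4.74, -6.13 and -6.13, with a mean of -5.40 ± 0.64 (SE, adjusted p = 0.00125). Its intensities were 1099, 1301, 265 and 378 in AZC RNA and 23329, 19383, 10497 and 11333 in water RNA, each water value being above the AZC value of the same array. LOC732655 (AW567734), the A subunit of the chloroplast glyceraldehyde-3-phosphate dehydrogenase of the Calvin cycle, gave -4.55, -4.84, -5.58 and -4.42 and averaged -4.85 ± 0.16 (SE, adjusted p = 5.44e-06). A second clone under that symbol, AW508802, gave -0.29, -0.45, 0.09 and 0.56, with both signs among its hybridizations, and was not called (adjusted p = 0.977). PSAD, a photosystem I subunit, had 3 usable hybridizations and was not tested. The photosynthesis list thus held 2 falls among 3 tested clones (66.7%, against 4.94% of all clones).

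Granule-bound starch synthase, which makes amylose, was spotted as 4 clones under LOC100037476, and all 4 fell. AW472193 gave -4.94, -5.60, -5.18 and -5.05, a mean of -5.19 ± 0.17 (SE, adjusted p = 2.25e-06), or 36.5-fold lower. In AZC it was among the dimmest 10% of spots on 2 of the 4 arrays, and its log2 ratio was -3.51 with no background correction and -5.34 with median centring, the ends of its range over the alternatives. AW472190 gave -3.52, -3.86, -3.28 and -3.68, with a mean of -3.59 ± 0.17 (SE, adjusted p = 2.79e-05). The other two fell less, AW508018 with a mean log2 ratio of -1.58 ± 0.25 (SE, adjusted p = 0.0056) and AI940891 with -0.87 ± 0.14 (SE, adjusted p = 0.0056), so clones of 1 symbol spanned -5.19 to -0.87. The remaining starch clone, a beta-amylase (LOC547931, AW432893), which breaks starch down, gave -0.84, -1.05, -0.77 and -1.21 and missed the threshold (adjusted p = 0.08). It was called lower in 4 of 22 alternatives: AZC alone, median centring, the replicate block and all 12 hybridizations with a dye term. All 5 starch clones were then called lower in AZC, against 2 called without AZC replicate 1.

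Of 11 tested clones for fatty acid synthesis and desaturation, 4 fell (36.4%, against 4.94% of all clones) and none rose (median -0.27). FAD3A (AI960953), an omega-3 desaturase that makes linolenic acid, gave -2.50, -2.57, -2.40 and -2.45, with a mean of -2.48 ± 0.14 (SE, adjusted p = 2.36e-05). These values lay within 0.2 of each other, the tightest of the large falls described here. A second FAD3A clone, AW318139, gave -0.39, -0.10, -0.07 and -0.99 (adjusted p = 0.256). Both clones of FAD2-3, an omega-6 desaturase that makes linoleic acid, fell, AW100780 to -1.20 ± 0.13 (SE, adjusted p = 9.04e-04) and AW471558 to -1.09 ± 0.12 (SE, adjusted p = 7.21e-04). ACPD (AW509087), the stearoyl-ACP desaturase that places the first double bond, gave -1.05, -1.40, -0.93 and -0.90, with a mean of -1.07 ± 0.14 (SE, adjusted p = 0.004), while its other clone AI941223 was at -0.03 ± 0.07 (SE, adjusted p = 0.849). KASI, the ketoacyl-ACP synthase that lengthens the chain, was at 0.17 and was not called.

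Nitrogen assimilation gave 2 falls among 11 tested clones of nitrogen and sulfur assimilation (18.2%, against 4.94% of all clones, median -0.27). GS-2 (AI736144), a glutamine synthetase that fixes ammonium, gave -0.996, -0.95, -1.89 and -1.07, with a mean of -1.23 ± 0.18 (SE, adjusted p = 0.00384). The third of these values lies apart from the others. EU3 (AW568823), an accessory protein that urease needs for its nickel centre, gave -1.54, -0.84, -0.90 and -1.52, with a mean of -1.20 ± 0.16 (SE, adjusted p = 0.00445). The other clones of these symbols were near 0, GS-2 AW186035 at -0.01 ± 0.16 and EU3 AI735974 at 0.01 ± 0.06 (SE, adjusted p = 0.978 and 0.94).

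Of 12 tested antioxidant clones 1 rose (GSTU41), 3 fell and 8 were not called (8.33% and 25% called, against 3.78% and 4.94% of all clones), with a median of -0.12. The rise of GSTU41 was not called in either dye orientation alone. SODB (AI959792), an iron superoxide dismutase of plastids, gave -1.76, -1.85, -1.01 and -0.77, with a mean of -1.35 ± 0.22 (SE, adjusted p = 0.00745). DHAR3 (AW509423), which regenerates ascorbate, gave -0.54, -0.98, -0.88 and -1.09, with a mean of -0.87 ± 0.15 (SE, adjusted p = 0.0127), and a second DHAR3 clone, AW186212, was at -0.16 ± 0.15 (SE, adjusted p = 0.624). GSTF5 (AW507753), another glutathione S-transferase, gave -0.43, -0.94, -1.01 and -0.51, with a mean of -0.72 ± 0.13 (SE, adjusted p = 0.0105). Ferritin, which stores iron, was at -0.65 ± 0.28 for AW186337 and was not called (SE, adjusted p = 0.245).

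Of 11 tested clones in the list of flavonoid and phenylpropanoid enzymes, 2 fell (18.2%, against 4.94% of all clones, median -0.03). The list also took in cytochrome P450s, and of the pair that fell only F3H is known as a flavonoid enzyme. F3H (AW277481), flavanone 3-hydroxylase of flavonoid synthesis, gave -3.30, -2.19, -1.79 and -1.25, with a mean of -2.13 ± 0.27 (SE, adjusted p = 0.00173). CYP93E1 (AW507877), a cytochrome P450 of soybean triterpene synthesis, gave -2.69, -2.65, -0.87 and -1.92, with a mean of -2.03 ± 0.39 (SE, adjusted p = 0.0162). For both, replicate 1 lay lower than replicate 2 in each orientation. Chalcone synthase (CHS1), which opens the flavonoid route, was at 0.28 and not called.

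Among 17 tested transcription factor clones other than NAC, WRKY33 rose and 2 fell (5.88% and 11.8%, against 3.78% and 4.94% of all clones). HDL56 (AW508928), a homeodomain-leucine zipper factor, gave -1.77, -2.28, -2.76 and -2.57, with a mean of -2.35 ± 0.19 (SE, adjusted p = 3.33e-04), and MYBZ2 (AW185997), of the MYB family, gave -0.37, -0.71, -1.16 and -0.73, with a mean of -0.74 ± 0.13 (SE, adjusted p = 0.00888). The bZIP clones were not called. BZIP77 (AI941155) was at -0.03 ± 0.12 and BZIP21 (AW186086) at -0.43 ± 0.15 (SE, adjusted p = 0.933 and 0.144). BZIP21 lay below 0 in all 4 hybridizations and was called lower in 2 of 22 alternatives, median centring and all 12 hybridizations with a dye term. MIPS (AI941146), myo-inositol-1-phosphate synthase, the first enzyme of inositol synthesis, gave -1.82, -1.49, -1.15 and -1.25, with a mean of -1.43 ± 0.14 (SE, adjusted p = 5.14e-04). SHOOT1 (AW101186), which the hormone and growth list holds, averaged -0.71 ± 0.15 (SE, adjusted p = 0.0217).

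The 3 other called clones belong to no list. LOC547761 (AW472360) was at -1.33 ± 0.12 (SE, adjusted p = 2.64e-04) and LOC547743 (AW471566) at -0.74 ± 0.14 (SE, adjusted p = 0.0229). LOC547884 (AW102551), annotated as a metal ion binding protein, was at -0.74 ± 0.17 (SE, adjusted p = 0.0393). Its call was lost in 10 of 22 alternatives, among them the fit on AZC alone (adjusted p = 0.074). The calls of WRKY33, CG-1 and GSTF5 were lost in 8, 7 and 6 of the 22. A second LOC547761 clone, AW132167, was at -0.12 ± 0.11 (SE, adjusted p = 0.633). Seed storage protein clones, which mark the tissue of the libraries, gave 1 fall among 8 tested (12.5%, against 4.94% of all clones). It was CG-1 (AI941229), a beta-conglycinin, at -0.62 ± 0.13 (SE, adjusted p = 0.0267). The glycinin clone GY4 (AW459971) had intensities of 5662, 9019, 3648 and 5520 in AZC RNA and 5497, 5892, 2856 and 3415 in water RNA. Spots of this clone were thus not dark in these leaf samples, but brightness varied over the seed list. In AZC RNA the array medians were 673.5, 790, 352 and 485. Albumin A1 (AW569149) lay below them at 521, 563, 316 and 341, and the inhibitor D-II (AW397006) above them at 915, 1123, 438 and 700. The other CG-1 clone, AW508681, was at 0.15 ± 0.18 (SE, adjusted p = 0.722). No tested clone was called in the lists for vacuolar proteases (7 tested) and signaling kinases, phosphatases and 14-3-3 proteins (8 tested). Of all clones tested 8.72% were called, so lists of this size without a call say little about their members. The other 2 LOX1.1 clones were not called either, AI748749 at -0.13 ± 0.12 and AW509088 at 0.40 ± 0.20 (SE, adjusted p = 0.632 and 0.339).

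In the fits that left out 1 AZC replicate, the AZC value that remained was tested on the spread of the TUN and PEG replicates. Without AZC replicate 1 there was no call for CYP93E1, the starch synthase clones AW508018 and AI940891, SODB, EU3, ACPD, DHAR3, LOC547884, LOC547743, GSTF5, SHOOT1 and CG-1. Without AZC replicate 2 there was none for GS-2, EU3, DHAR3, MYBZ2, GSTF5, SHOOT1 and CG-1.

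**Figure D3:**
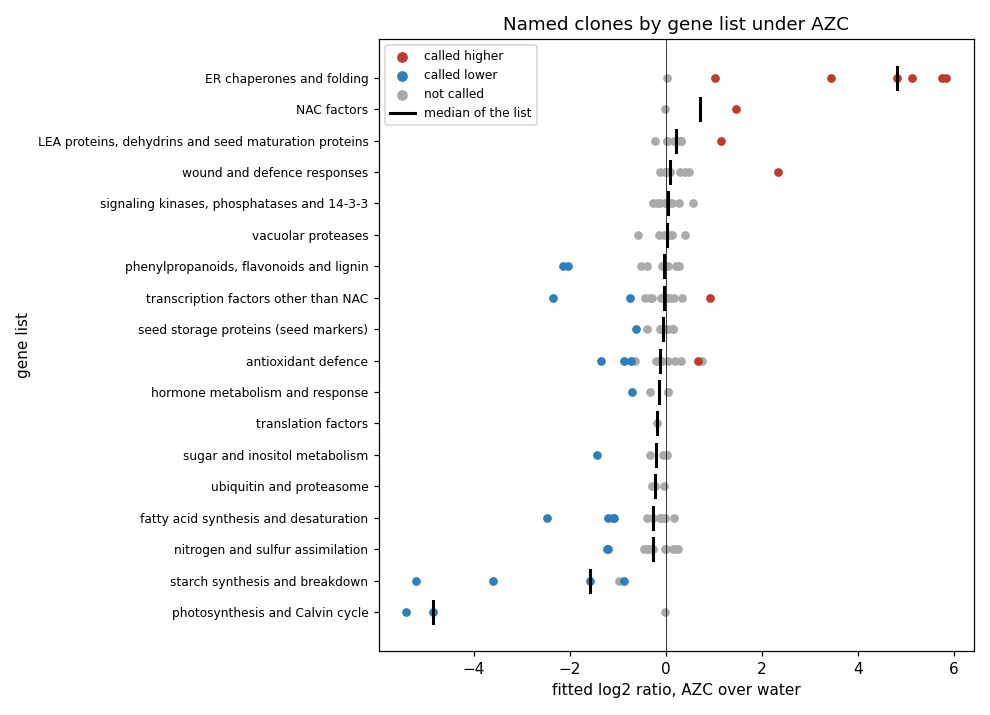
Fitted log2 ratio of AZC over water (x axis) of the tested named clones of each gene list (y axis), red for called higher, blue for called lower, grey for not called, with a black bar at the list's median. The ER chaperone list has its median at 4.81 and the photosynthesis list at -4.85, while most other medians lie near 0.

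The AZC ratios were then compared with those of TUN, whose dose and time differ. The difference AZC minus TUN was called for 71 of 4372 clones tested (1.62%), 25 higher (0.572%) and 46 lower (1.05%) in AZC. The ER chaperones gave values side by side: AW509482 was at 5.84 ± 0.34 under AZC and 5.73 ± 0.34 under TUN (difference 0.11 ± 0.49, SE, adjusted p = 0.965). For the calnexin clone AW508066 the ratios were 5.13 ± 0.11 under AZC and 5.11 ± 0.11 under TUN (difference 0.02 ± 0.16, SE, adjusted p = 0.983). A missed threshold does not show that the treatments act alike.

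Of 7 desaturase clones with a value for both AZC and TUN, 4 differed and 3 did not pass the test. FAD3A (AI960953) was at -2.48 under AZC and -0.96 under TUN, a difference of -1.52 ± 0.20 (SE, adjusted p = 0.00952). Both FAD2-3 clones and ACPD AW509087 were lower under AZC than under TUN, with differences of -1.35 ± 0.19 (SE, adjusted p = 0.0131), -1.21 ± 0.17 (SE, adjusted p = 0.0122) and -1.17 ± 0.20 (SE, adjusted p = 0.0463), and none of these 3 was called for TUN itself. The differences without a call were -0.32 ± 0.24 for FAD3A AW318139, -0.03 ± 0.10 for ACPD AI941223 and 0.06 ± 0.12 for FAD2-1 AW460032 (SE, adjusted p = 0.706, 0.945 and 0.924). Outside the desaturases the difference was -1.17 ± 0.18 (SE, adjusted p = 0.021) for GSTF5 (AW507753), -2.02 ± 0.24 (SE, adjusted p = 0.00666) for the starch synthase clone AW472193 and -1.87 ± 0.17 (SE, adjusted p = 0.00237) for LOC547761 (AW472360). The last had opposite signs, -1.33 ± 0.12 under AZC and 0.53 ± 0.12 under TUN, each called. The starch synthase clone was called lower under both, at -5.19 ± 0.17 under AZC and -3.17 ± 0.17 under TUN.

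AZC and PEG were both given for 16 h against water. The difference AZC minus PEG was called for 205 of 3976 clones (5.16%), 100 higher (2.52%) and 105 lower (2.64%) in AZC. Among the named clones called for AZC, BiP and calnexin clones differed most: AW509482 was at 5.84 under AZC and -1.47 under PEG, a difference of 7.31 ± 0.49 (SE, adjusted p = 1.98e-04). BIP4 AW471814 differed by 7.47 ± 0.27 (SE, adjusted p = 2.28e-05) and calnexin AW508066 by 6.31 ± 0.16 (SE, adjusted p = 5.62e-07). The LOX1.1 clone AW508203 was higher under AZC than under PEG by 1.71 ± 0.21 (SE, adjusted p = 0.00367). Lower under AZC were GAPDH A AW567734, with a difference of -2.69 ± 0.22 (SE, adjusted p = 0.00103), F3H, with -1.92 ± 0.38 (SE, adjusted p = 0.0264), and FAD3A AI960953, with -1.66 ± 0.20 (SE, adjusted p = 0.00328). GAPDH A and FAD3A were called lower under PEG too, at -2.16 ± 0.16 and -0.82 ± 0.14 (SE, adjusted p = 3.71e-04 and 0.00887). F3H was not called for PEG, at -0.22 ± 0.27 (SE, adjusted p = 0.702). The photosystem II clone AW472492 was at -5.40 ± 0.64 under AZC and -5.23 ± 0.64 under PEG, with no call for the difference (adjusted p = 0.959). Both FAD2-3 clones were called lower under PEG too. AW100780 was at -0.97 ± 0.13 and AW471558 at -0.78 ± 0.12 under PEG (SE, adjusted p = 0.00297 and 0.0045). Their differences between AZC and PEG were not called (adjusted p = 0.627 and 0.423). The direction of PEG replicate 1 rests on the exchange of its scanner files, and with the files as listed 9 clones were called for AZC minus PEG.

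**Figure D4:**
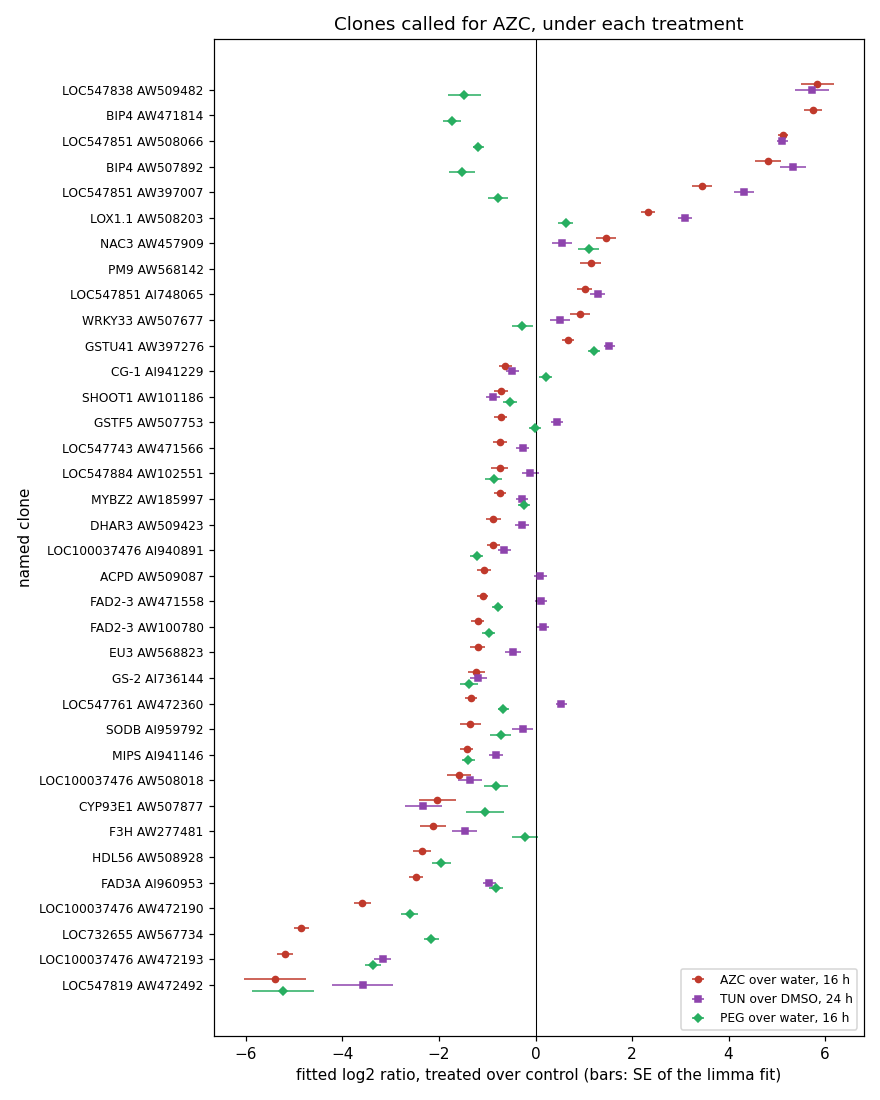
Fitted log2 ratio of treated over control (x axis, bars are the SE of the fit) under AZC, TUN and PEG for the 36 named clones called for AZC (y axis), with missing points where a treatment could not be tested. The BiP clones and calnexin AW508066 lie above 4 under AZC, and below 0 under PEG, while AW472492 lies below -3 under every treatment.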

How the data were processed

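The 4 AZC hybridizations compare AZC-treated with water-treated leaf RNA on 2-colour arrays of 5760 spots. The deposited scanner files hold, per channel, intensity values with no fixed unit (mean foreground, local background and its SD), the percent of saturated pixels, and marks of the scanner software. The deposited value table holds the authors' LOWESS-normalized log2 ratios, used as an alternative. The methods name QuantArray, the file headers ScanArray Express.

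Background was taken as the mean of the local pixels and corrected by normexp (offset 50), followed by global loess per array. Spots marked 1 or 4 were dropped (60 to 579 per AZC array). Ratios were turned by the dyes of the labels, dye-swap pairs averaged with both orientations required, and limma 3.58.1 in R 4.3.3 fitted to 6 values per clone with an intensity trend. A filter (signal above background plus 2 SD on 3 of 4 hybridizations in any RNA group) removed no spot. In all, 4 versions of this processing were run before one was settled on: mean or median local background, each with loess weighted or not by the marks. The first run used the mean. After these counts had been seen, the median was taken as the main setting for a single run, and the mean was then restored. The methods speak of mean background-subtracted intensity, which does not fix the statistic of the local background. The scanner software's own subtraction uses the median. For PEG replicate 1 each scanner file was given to the other hybridization, because as listed they correlated with their own columns of the authors' table at -0.50 to -0.49 and exchanged at 0.98.

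The median signal was 3.52 to 6.87 times its local background, and no AZC spot had over 50% saturated pixels. Array number limits the precision, and p-values measure the spread between replicates pooled over the 3 treatments, 2 values each, which may be technical. AZC arrays of each dye orientation were quantified on a day of their own, so dye and day cannot be told apart. Members, lists and tests were chosen with earlier results of these data known. Named are all platform-named clones called for AZC, others of their symbols, those the paper names, and a few uncalled list members. Fits were tested on simulated data. Gene names come from the platform table.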

Additional observations from a re-analysis of the deposited data

Results flagged for a closer look

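GS-2 (AI736144) had 1 of its 4 AZC hybridizations far from the others: the gap to the nearest value was 0.873 of the whole range (-0.996, -0.95, -1.89 and -1.07 on the log2 scale), above Dixon's limit for 4 values. Chance alone sets off this criterion in about 1 of 20 groups, and 36 clones were examined.

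Some called clones differed between AZC and TUN in the test of the difference, whose log2 values (AZC minus TUN) were -2.02 for starch synthase AW472193, -1.52 for FAD3A AI960953, -1.87 for LOC547761 AW472360, -1.35 and -1.21 for FAD2-3 AW100780 and AW471558, -1.17 for ACPD AW509087 and -1.17 for GSTF5 AW507753. Between AZC and PEG the called log2 differences (AZC minus PEG) were -1.83 for AW472193, -2.69 for GAPDH A AW567734, -1.66 for FAD3A AI960953, -1.92 for F3H AW277481 and -0.84 for CG-1 AI941229. On the higher side they were 1.71 for LOX1.1 AW508203, 4.22 and 6.31 for calnexin AW397007 and AW508066, 6.34 and 7.47 for BIP4 AW507892 and AW471814, and 7.31 for BiP isoform D AW509482.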

How the results depend on the processing

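All 36 called named clones kept their sign in each alternative that gave them a value. The 3 other versions of background and loess weights, chosen after seeing the data, gave 201 raised and 258 lowered (median background), 198 and 256 (unweighted loess) and 200 and 259 (both), and kept all 36 named calls. Counts for AZC moved by over 1.5 times as follows, the cause not tested unless fewer samples entered. Median centring gave 452 raised and 585 lowered, and plain subtraction 165 lowered. With AZC in Cy5 only, 106 rose and 163 fell, with 27 of 36 named calls kept, and in Cy3 only 28 were kept. The methods' t-test over 4 hybridizations, with its fold limit and Benjamini-Hochberg adjustment, gave 47 and 75, against 226 and 276 unadjusted. Leaving out either AZC replicate gave 91 to 125 raised and 110 to 160 lowered, with 22 of 36 named calls kept without replicate 1 and 24 without replicate 2. PEG replicate 1 files as listed gave 53 raised and 23 lowered, with 6 of 36 named calls kept, 1 call for AZC minus TUN and 9 for AZC minus PEG. Calls for AZC minus TUN, 71, were 37 by plain subtraction, 126 by median centring, 39 with no intensity trend, 47 without PEG, 166 over 12 hybridizations with a dye term and 32 with treated RNA in Cy5, and 30 to 34 without an AZC replicate. Calls for AZC minus PEG, 205, were 350 over 12 hybridizations and 112 in Cy5 only, and 94 to 120 without an AZC replicate. With the replicate block, 206 rose and 256 fell. Deviations of same-numbered replicates correlated at 0.14 (AZC and TUN), -0.07 (AZC and PEG) and -0.03 (TUN and PEG). With 2 replicates per treatment this cannot decide whether same-numbered replicates were handled together, which the labels do not give. The filter alternatives changed nothing, since no spot was removed.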
